A study of Homo sapiens with 52 samples.

Results

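The 9 genes described here code for components and regulators of complement. CFB, C3 and CFI belong to the alternative pathway, C1R, C1S and SERPING1 to the classical pathway, and CD46, CD55 and CD59 are regulators on the cell membrane. They were found by gene name among the 78894 genes of the deposited gene-level expected counts and TPM (transcript abundance scaled to length and library size), and each name matched a single row. The genes were chosen by these names with gene-level results of the same data known, and the contrast that led to the choice was not recorded. Their levels and calls in the gene-level tests are therefore a description, which supports nothing about complement as a group. The rule holds no threshold, so CFI, which was listed at 0 in 6 samples, counts as a member like C3, which reached 1113 TPM.

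Complement is a cascade of plasma proteins that marks and lyses cells. C1r and C1s are the serine proteases of the C1 complex, which starts the classical pathway, and C1 inhibitor, the product of SERPING1, blocks both. Factor B, the product of CFB, forms the protease of the alternative pathway convertase, and C3 is the protein that the convertases cleave and on which all pathways meet. Factor I, the product of CFI, cuts active C3b, with CD46 as a cofactor, while CD55 speeds the decay of convertases and CD59 blocks the assembly of the membrane attack complex. The liver makes most of the soluble components, and many other cells, epithelial and tumour cells among them, transcribe these genes, mostly under interferons and inflammatory cytokines.

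The samples came from 3 established human breast cancer cell lines that the study classes as claudin-low, SUM159PT, MDA-MB-231 and HS578T. In each line NRP1, which codes for a co-receptor of semaphorins and vascular growth factors, was knocked down in order to describe the transcriptome without it. The groups siNT, siNRP1#3 and siNRP1#5 were reverse transfected with 20 nM siRNA, and RNA was harvested 72 hrs later. The groups shNT, shNRP1#3 and shNRP1#5 were transduced with lentivirus and selected with puromycin, and RNA was harvested 48 hrs after seeding. siNT and shNT carried non-targeting sequences, so that every group, controls included, had received a transfection or a transduction. Sequence #5 was the same in siRNA and shRNA and targets transmembrane and soluble NRP1, while the sequences called #3 differ between siRNA and shRNA and target transmembrane NRP1 only. Of the 18 groups, 16 had 3 samples. The 2 others had 2 samples each, HS578T shNRP1#3 with replicates 1 and 2, and SUM159PT siNRP1#5 with replicates 2 and 3. The study left out an outlier from each of these groups, and those libraries were not used here. The shRNA replicates were consecutive passages of the same transduced cells, so that p-values measure the spread between these samples, which may be technical.

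Expected counts summed to between 25310443 and 72003442 per sample, with a median of 44804505, and no replicate pair was a copy of another, since the chi-square between replicates was at least 10.98 for each degree of freedom. NRP1 itself had a log2 fold change between -4.88 and -0.70 in the 12 knockdown comparisons, and 11 of them passed the test. In HS578T shNRP1#3 it did not, with a log2 fold change of -1.59 and an adjusted p of 0.069 by edgeR's quasi-likelihood test. The claudin-low label was checked against its markers. CLDN4, which such cells lack, lay between 62.6 and 226 TPM in the 18 MDA-MB-231 samples, against medians of 0.99 TPM in SUM159PT (highest 27.9) and 1.02 TPM in HS578T (highest 25.6). CLDN3 and CLDN7 reached 13.4 and 61.5 TPM in MDA-MB-231. CDH1, which such cells also lack, was low in each line, with a median of 0.405 TPM in MDA-MB-231 (highest 3.33). VIM, which they express, was at 1311 TPM or more in every sample. ZEB1, which they express too, had medians of 4.56, 13.01 and 6.07 TPM in SUM159PT, MDA-MB-231 and HS578T. ALB and TTR, which mark liver cells, stayed at or under 0.15 TPM in every sample, and APOA1, also a liver gene, reached 1.1 TPM in MDA-MB-231. Of the leukocyte genes PTPRC alone passed 2 TPM, reaching 13.1 TPM in SUM159PT.

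The 3 libraries labelled HS578T siNRP1#5 stood apart. Marker genes of MDA-MB-231 had group means of 20 CPM (counts scaled to library size) or more in its siNT and shNT. In siNT and shNT of HS578T and SUM159PT their group means were at or under 0.5 CPM. These 5 genes (PKP2, TMCC3, PRTFDC1, QNG1 and FBP1) summed to between 19.3 and 32.6 CPM in the HS578T siNRP1#5 libraries. In HS578T siNT the sum was between 1.02 and 2.46 CPM, in siNRP1#3 between 2.64 and 9.03 CPM, and in the shRNA groups at most 0.423 CPM, and all 5 were above 0 in each siRNA sample. Relative to the MDA-MB-231 controls, the levels in HS578T siNRP1#5 correspond to a share of 24.3, 17.95 and 12.96% of MDA-MB-231 RNA, and replicate 2 also had a share of 5.85% of SUM159PT RNA. Replicates 1, 2 and 3 of HS578T siNRP1#3 had shares of 1.75, 2.95 and 7.14% of MDA-MB-231 RNA, against 0.65, 1.13 and 2.00% in siNT. The other complement genes, transcription factors and cytokines below are given as deposited in siNRP1#3 of HS578T. Each share is a median over marker genes, and another source of their levels was not tested. In the samples of SUM159PT and MDA-MB-231 no share of another line passed 1.90% by markers of 1 line alone. Gene-level fold changes of CFB, C3, C1R, C1S, CD46 and CD59 in HS578T siNRP1#5 are given below as deposited and with the expected counts of the other lines taken off, as are those of CFP, IL6 and IL1B, and the other values of that group are as deposited.

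**Figure D1:**
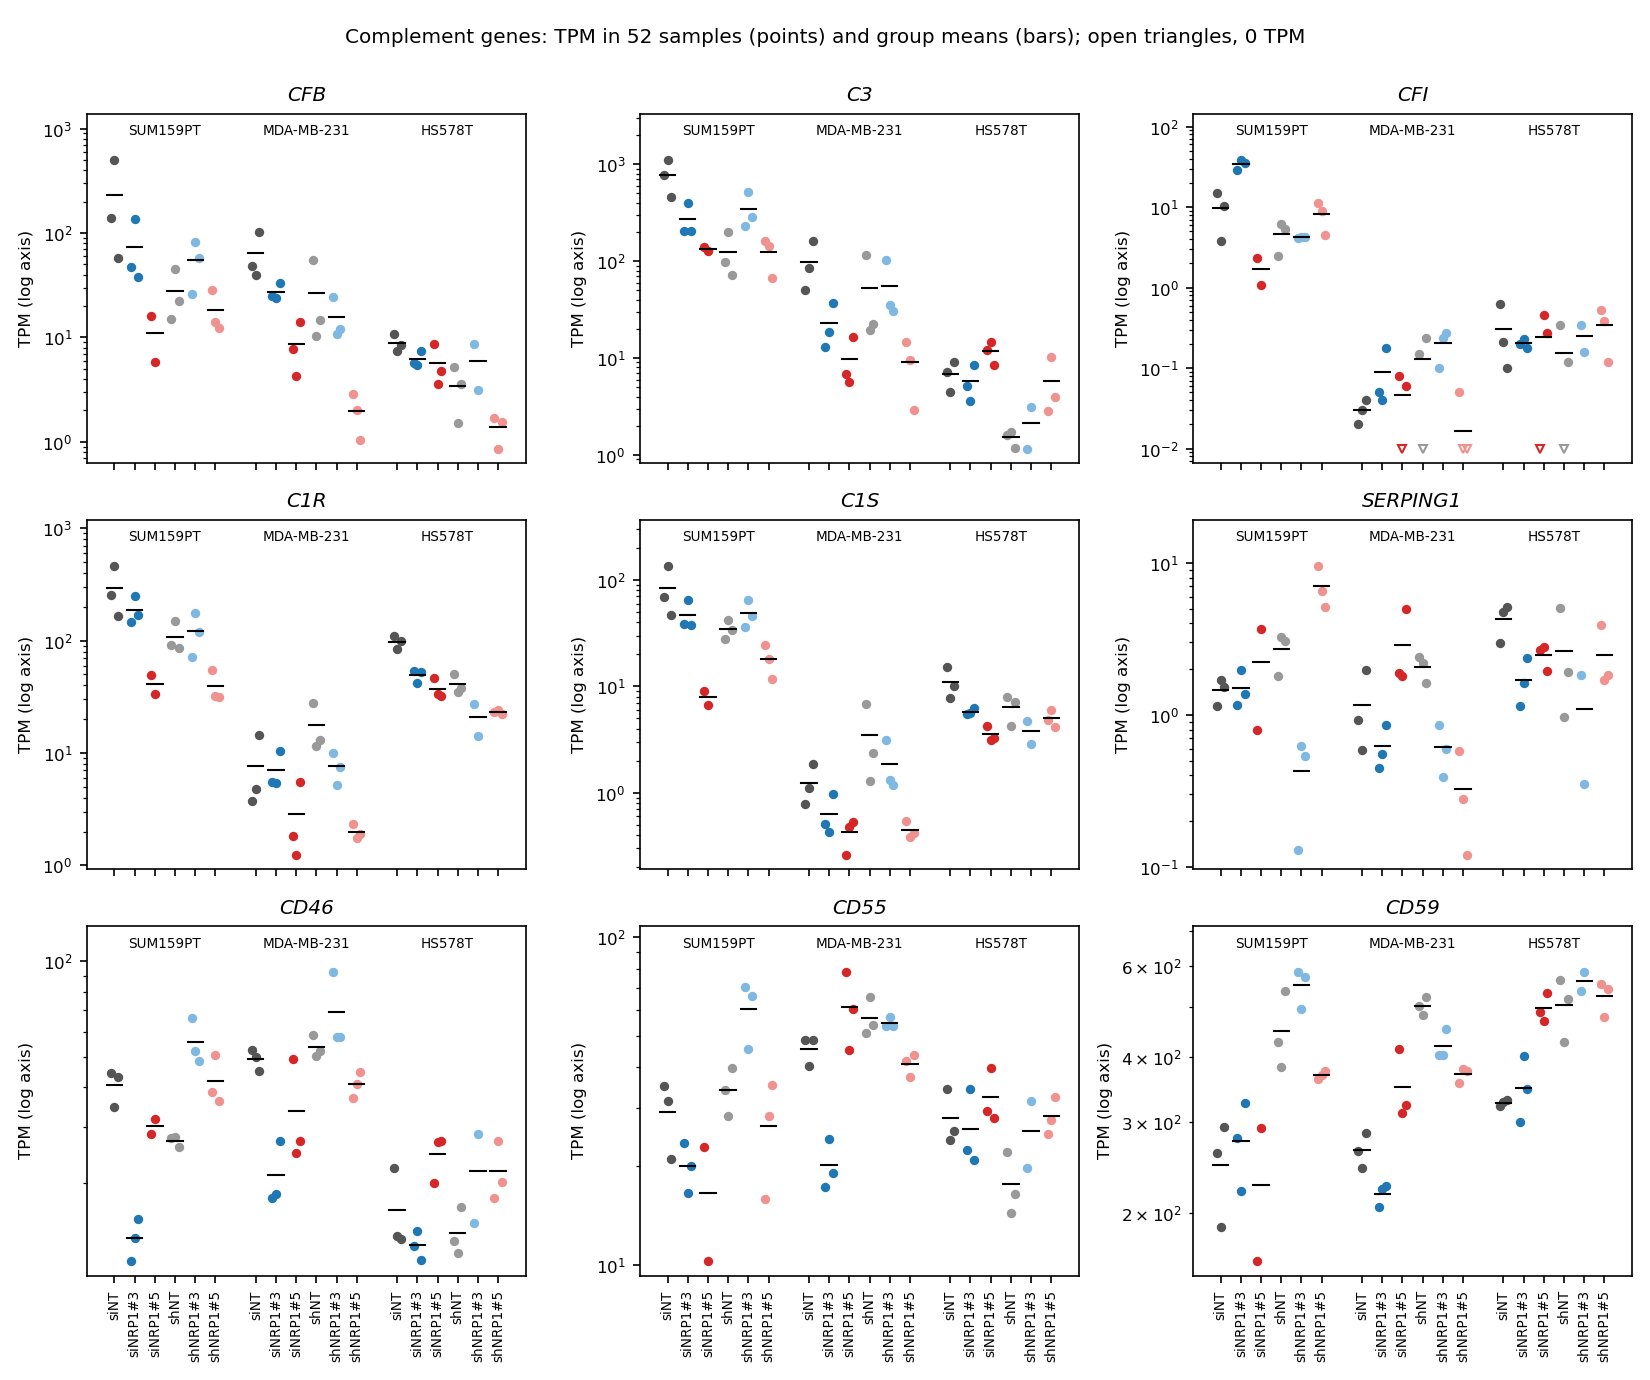
TPM of the 9 complement genes in all 52 samples. Each point is a sample, each bar a group mean, the vertical axis of each panel is logarithmic, and open triangles mark samples at 0 TPM. C3, CFB and CFI were highest in SUM159PT siRNA groups, and CFI was at or under 0.62 TPM in every MDA-MB-231 and HS578T sample.

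In the 6 control samples of SUM159PT, 3 with siNT and 3 with shNT, C3 had a median of 329 TPM (72.8 to 1113), C1R 158 TPM (85.5 to 461), CFB 51.3 TPM (15.1 to 502), C1S 44.5 TPM (27.7 to 135) and CFI 5.74 TPM (2.5 to 14.8). In MDA-MB-231 the median of C3 was 67.6 TPM (19.7 to 159.9), that of CFB 44.005 TPM (10.2 to 103) and that of C1R 12.3 TPM (3.73 to 28.1), while C1S had 1.56 TPM (0.78 to 6.79). HS578T kept C1R at 67.6 TPM (35.1 to 109.7) and C1S at 7.8 TPM (4.22 to 15.1), but C3 at 3.1 TPM (1.19 to 9.05) and CFB at 6.36 TPM (1.52 to 10.9). SERPING1 was low in all lines, with medians of 1.75 TPM in SUM159PT, 1.79 TPM in MDA-MB-231 and 3.86 TPM in HS578T. Of the membrane regulators, CD59 was the most abundant in each line, with medians of 338, 384 and 379 TPM in SUM159PT, MDA-MB-231 and HS578T. CD46 had medians of 31.2, 51.3 and 13.4 TPM, and CD55 of 32.9, 49.7 and 23.0 TPM in the same order. The median TPM of C3 was thus under that of each of the 3 membrane regulators in HS578T, and in SUM159PT it was the nearest to that of CD59.

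In the test between lines, fitted over all 52 samples, the mean of siNT and shNT of a line was set against that of another. SUM159PT against MDA-MB-231 had 5 of 9 members past the threshold of 0.05 on the adjusted p, where 59.4% of all 23416 genes passed. All 5 were higher in SUM159PT, with log2 fold changes of 1.34 for CFB, 2.40 for C3, 7.13 for CFI, 4.31 for C1R and 5.17 for C1S. HS578T against MDA-MB-231 had 9 of 9 past the threshold, where 70.2% of all genes passed. CFI, C1R (3.24 ± 0.38, log2 fold change ± SE), C1S, SERPING1 and CD59 were higher in HS578T, and CFB (-2.20 ± 0.52), C3 (-3.79 ± 0.51), CD46 and CD55 were lower. HS578T against SUM159PT had 8 of 9 past the threshold, where 63.5% of all genes passed. C3 had the largest of these differences, -6.19 ± 0.57, with an edgeR adjusted p of 9.13e-12, and CD55 (-0.24 ± 0.20) did not pass. Since most genes differed between these lines, the number of members that differed is no result about complement genes. Delivery and harvest time differ between siNT and shNT, and the counts with either control alone were 21 and 18 of 27 in place of 22.

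In the knockdown comparisons, each NRP1 siRNA was set against siNT and each NRP1 shRNA against shNT of the same line, in a single fit per line. Both siRNAs share the siNT samples and both shRNAs the shNT samples, so that the comparisons of a control are not independent of each other. In bulk RNA, fewer cells of a type and less RNA per cell cannot be told apart. Over the 12 comparisons the members were tested 104 times and called 26 times, 6 times higher and 20 times lower than the control. Of these calls, 14 stayed in every fit without 1 library, and the 12 others are named with their libraries below. Of all genes, between 0.0356% (HS578T shNRP1#3) and 29.4% (MDA-MB-231 siNRP1#5) were called per comparison. In the comparisons with the most member calls, all genes called were lower as follows: 1784 of 3590 with siNRP1#5 in SUM159PT, 2805 of 5518 and 2246 of 3899 with siNRP1#5 and shNRP1#5 in MDA-MB-231. The member totals describe chosen genes and are no result about complement genes.

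In SUM159PT all 9 members passed the filter on low counts. With siNRP1#3, 2 of 9 were called, CFI higher and CD46 lower, where 8.66% of all 20067 genes were called. siNRP1#5 had 5 of 9 called, CFB, C3, CFI, C1R and C1S, all lower, where 17.9% of all genes were called. The median log2 fold change of the 9 was -1.94, beside 0.01 over all genes. shNRP1#3 had 1 of 9 called, SERPING1, against 1.4% of all genes. With shNRP1#5 edgeR called 0 of 9 members and 5.94% of all genes, and DESeq2 called 1 of 9, C1R. The share of all genes called by DESeq2 is not given here or below. At an unadjusted edgeR p under 0.05 were 4 of 9 members (C1R, C1S, SERPING1 and CD46) and 3730 of all 20067 genes. All 5 calls of siNRP1#5 rest on the other groups of the line in the fit: with the 2 groups alone none of the 5 passed, at adjusted p between 0.0604 and 0.127.

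In MDA-MB-231 CFI did not pass the filter, and 8 members were tested. siNRP1#3 had 2 of 8 called, CD46 and CD55, both lower, a share like the 25.7% of all 18800 genes. siNRP1#5 had 6 of 8 called, 3 lower (CFB, C3 and CD46) and 3 higher (SERPING1, CD55 and CD59), where 29.4% of all genes were called. With shNRP1#3 no member was called by edgeR, against 3.65% of all genes, while DESeq2 called 1 (SERPING1). At an unadjusted edgeR p under 0.05 were 3 members (C1R, SERPING1 and CD59) and 3147 of all 18800 genes. shNRP1#5 had 5 of 8 called, CFB, C1R, C1S, SERPING1 and CD59, all lower, where 20.7% of all genes were called. The median log2 fold change of the 8 members was -2.75 with shNRP1#5, beside 0.02 over all genes.

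In HS578T all 9 members were tested. siNRP1#3 had 1 of 9 called, C1R, where 4.65% of all 19661 genes were called. siNRP1#5 had 4 of 9 called, C1R and C1S lower and CD46 and CD59 higher, where 18.7% of all genes were called. With shNRP1#3, 0 of 9 were called by edgeR and by DESeq2, and edgeR called 0.0356% of all genes, or 7 genes. At an unadjusted edgeR p under 0.05 were 2 members (C1R and CD46) and 1349 of all 19661 genes. With shNRP1#5, 0 of 9 were called by edgeR, against 0.946% of all genes. DESeq2 called 3 of them (CFB, C3 and C1R). At an unadjusted edgeR p under 0.05 were 5 members (the same 3, CD46 and CD55) and 3777 of all 19661 genes.

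**Figure D2:**
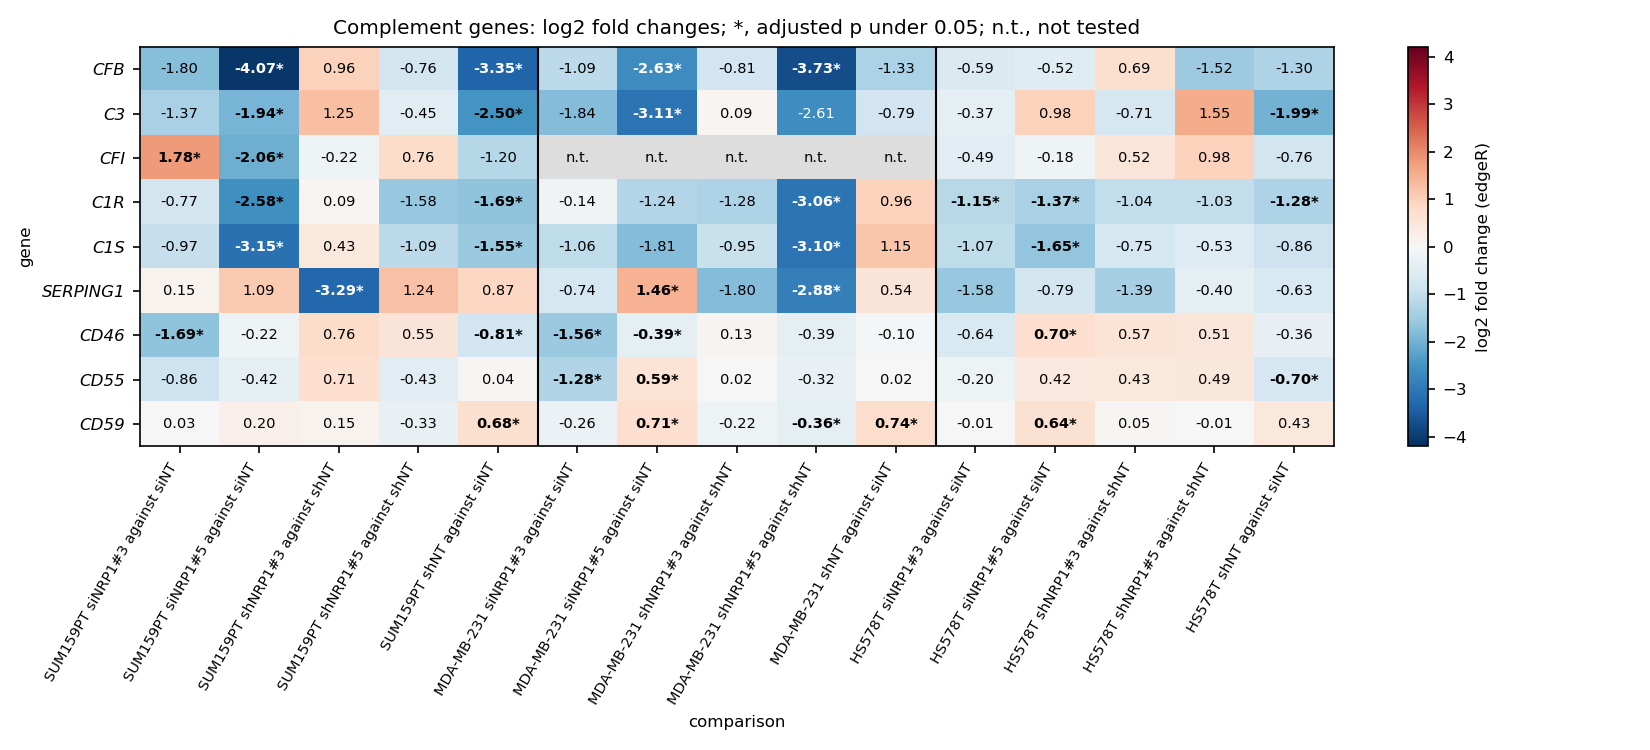
Log2 fold change of each of the 9 genes (rows) in the 12 knockdown comparisons and the 3 comparisons of shNT with siNT (columns), as colour and as number. Stars mark edgeR adjusted p under 0.05 over all genes tested, and n.t. marks CFI in MDA-MB-231, which was not tested. With siNRP1#5 CFB ranged from -4.07 in SUM159PT to -0.52 in HS578T.

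CFB (ENSG00000243649.10, plus strand, chr6:31945650-31952086 of GRCh38) was called in 3 knockdown comparisons, each time lower. In SUM159PT it was at 138, 502 and 57.6 TPM in the siNT replicates 1, 2 and 3 and at 16.1 and 5.81 TPM in siNRP1#5 replicates 2 and 3. Both siNRP1#5 samples lay under every siNT sample, although siNT itself spanned a wide range. The log2 fold change was -4.07 ± 1.06 (SE), and the adjusted p was 0.0166. Without siNRP1#5 replicate 3 the call was lost (-3.41, adjusted p = 0.105), and without siNT replicate 2, the sample at 502 TPM, the fold change was -2.67 (adjusted p = 0.0458). siNRP1#3 left 47.3, 135 and 37.8 TPM in SUM159PT, which overlapped siNT, and the call was not made (-1.80 ± 0.81, adjusted p = 0.182). With shRNA the groups overlapped as well, at 15.1, 45.1 and 22.4 TPM in shNT, 26.3, 81.6 and 57.1 in shNRP1#3 and 28.6, 14.1 and 12.4 in shNRP1#5.

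In MDA-MB-231 CFB was at 48.4, 39.6 and 103 TPM in siNT and at 7.79, 4.26 and 13.9 TPM in siNRP1#5. All siNRP1#5 samples lay under all siNT samples, and CFB fell by 2.63 on the log2 scale (SE 0.68, adjusted p = 0.011). The shRNA of the same sequence left 2.85, 2.04 and 1.05 TPM, against 55.6, 10.2 and 14.8 TPM in shNT, with no overlap and a log2 fold change of -3.73 ± 0.73 (adjusted p = 0.00365). Both calls stayed in every fit without 1 library. siNRP1#3 samples, at 24.9, 24.1 and 33.2 TPM, also lay under siNT, but the difference did not pass (-1.09 ± 0.65, adjusted p = 0.243). In HS578T CFB lay between 0.86 and 10.9 TPM over all groups and no comparison was called, with 5.26, 1.52 and 3.58 TPM in shNT and 1.71, 0.86 and 1.56 TPM in shNRP1#5 (-1.52 ± 0.52, adjusted p = 0.153). The replicate numbers of that comparison pair the samples, and with a replicate block CFB was called there (-1.46, adjusted p = 0.0404). Here and below, that block was shared by all groups of the line, also by groups whose numbers do not pair the samples. Over the 18 groups, no neighbours in the order of mean TPM were free of overlap for CFB.

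In HS578T siNRP1#5 CFB was at 8.66, 3.61 and 4.8 TPM, against 10.9, 7.46 and 8.43 TPM in siNT, and the difference was not called (-0.52 ± 0.50). In CPM, replicate 1 had 17.8 CPM, where the MDA-MB-231 and SUM159PT shares alone would give 20.8 CPM at the level of their NT controls. Replicate 2 had 7.18 CPM where 40.9 CPM would be given, and replicate 3 had 12.3 CPM against 11.2 CPM. At the level of siNRP1#5 in those lines, 3.36, 3.99 and 1.80 CPM would be given. With the counts expected at the NT level taken off, the log2 fold change was -5.20 (adjusted p = 0.00321), and at the level of siNRP1#5 in those lines it was -0.44 (adjusted p = 0.649). At the NT level no CFB counts were left in replicates 1 and 2, so that the size of -5.20 rests on this. Which level the RNA of the other lines had was not measured, and the direction of CFB in the HS578T cells of that group is given as unresolved.

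The region before the RefSeq start of CFB is shown because factors of the interferon and NF-kappaB pathways are known to act on this promoter. It lies inside the gene span given above, which begins at 31945650, so that it precedes the RefSeq start and not the start of that span. The stretch chr6:31945945-31946011 (GRCh38.p14, plus strand), 150 to 84 bases before the start, reads 5′ to 3′ as follows, with capitals for the 3 motif matches found in it.
CFB: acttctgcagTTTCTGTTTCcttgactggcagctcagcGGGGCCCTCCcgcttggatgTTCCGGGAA
The first match is to the interferon-stimulated response element, searched on both strands as GAAA, any pair of bases and GAAA, which 3.02% of 35116 promoters of 250 bases hold. The next is to the kappaB motif, searched by its consensus, which 9.96% hold, and the last to the gamma-activated site TTCNNNGAA, which 6.57% hold. The 3 matches do not overlap. Of the members, 6 had promoter entries (11 in all), and CFB, CD59 and C1R had a match, the last 2 to the gamma-activated site alone, in C1R at 1 of 2 starts and in CD59 at 2 of 4. C3, C1S and SERPING1 had no entry. A match is a match of letters, and no binding was measured here.

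C3 (ENSG00000125730.18, minus strand, chr19:6677704-6730562) was the most abundant of the soluble components in SUM159PT. siNT samples had 769.9, 1113 and 457 TPM, siNRP1#3 had 207, 395 and 206 TPM and siNRP1#5 had 139 and 128 TPM. All samples of both knockdowns lay under all siNT samples. The test called siNRP1#5 (-1.94 ± 0.54, adjusted p = 0.0222) and not siNRP1#3 (-1.37 ± 0.46, adjusted p = 0.0726), for which the replicate numbers pair the samples and a replicate block gave -1.41 with an adjusted p of 0.0127. The siNRP1#5 call was lost without siNRP1#5 replicate 2 (adjusted p = 0.0628), siNRP1#5 replicate 3 (0.132) or siNT replicate 1 (0.0546). With shRNA, C3 was at 99.01, 201 and 72.8 TPM in shNT and at 229.8, 522 and 283 TPM in shNRP1#3, where every sample lay above shNT and the difference did not pass (1.25 ± 0.46, adjusted p = 0.237).

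In MDA-MB-231 C3 was at 50.3, 84.96 and 159.9 TPM in siNT, 12.9, 18.5 and 36.9 TPM in siNRP1#3 and 6.91, 5.71 and 16.4 TPM in siNRP1#5. Both siRNA groups lay under siNT without overlap, and siNRP1#5 was called (-3.11 ± 0.94, adjusted p = 0.0249). This call was lost without siNRP1#5 replicate 1 (adjusted p = 0.0741), siNRP1#5 replicate 2 (0.0826) or siNT replicate 3 (0.0706), and siNRP1#3 was at -1.84 ± 0.89 (adjusted p = 0.155). With the shRNA of sequence #5, C3 was at 14.6, 9.54 and 2.93 TPM against 115, 19.7 and 22.5 TPM in shNT. These groups did not overlap either, and the difference missed the threshold (-2.61 ± 0.92, adjusted p = 0.0619).

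In HS578T C3 was near the bottom of its range, at 7.25, 4.47 and 9.05 TPM in siNT and 1.62, 1.74 and 1.19 TPM in shNT. It was at 12.2, 14.7 and 8.48 TPM in siNRP1#5, of which MDA-MB-231 and SUM159PT RNA at their NT level would give more than was measured in replicate 1 (39.6 against 33.2 CPM) and in replicate 2 (121 against 36.6 CPM). The log2 fold change was 0.98 ± 0.43 as deposited, -1.61 with the NT level taken off and 1.00 with the level of siNRP1#5 taken off, and none of the 3 passed. With the NT level taken off, no C3 counts were left in replicates 1 and 2. The group shNRP1#5, whose markers of other lines were at the level of shNT, had 2.86, 10.4 and 4 TPM. All 3 samples lay above the shNT samples, with a log2 fold change of 1.55 ± 0.44 and an adjusted p of 0.0995. Whether the effects of sequence #5 on C3 are equal in the 3 lines was tested in the fit over all samples. They differed for siNRP1#5 (adjusted p = 0.00561) and for shNRP1#5 (adjusted p = 0.0227), with fold changes under 0 in SUM159PT and MDA-MB-231 and above 0 in HS578T in both tests. In SUM159PT, however, shNRP1#5 overlapped shNT (66.3 to 163 against 72.8 to 201 TPM). The mean TPM was the same in both groups there (124.3 and 124.2), and C3 was not called.

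CFI (ENSG00000205403.15, minus strand, chr4:109731008-109802150) was expressed in SUM159PT. siNT samples had 14.8, 3.83 and 10.3 TPM, siNRP1#3 had 28.8, 38.7 and 34.9 TPM and siNRP1#5 had 2.33 and 1.07 TPM. The siRNAs moved CFI in opposite directions, and neither group overlapped siNT. CFI rose with siNRP1#3 (1.78 ± 0.43, adjusted p = 0.0171) and fell with siNRP1#5 (-2.06 ± 0.52, adjusted p = 0.0128). The rise was not called without siNRP1#3 replicate 2 (adjusted p = 0.0542), siNT replicate 2 (0.0668) or siNT replicate 3 (0.0506), and the fall was not called without siNRP1#5 replicate 3 (0.109). shNRP1#5, with the sequence of siNRP1#5, had 11.3, 8.98 and 4.54 TPM against 2.5, 6.11 and 5.36 TPM in shNT, and the groups overlapped. RSEM gave CFI a fractional count in 31 of the 52 samples, so that part of its reads was shared with other genes.

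C1R (ENSG00000159403.18, minus strand, chr12:7080214-7092540) and C1S (ENSG00000182326.17, plus strand, chr12:6988259-7071032) are neighbours on chromosome 12 that code for the paired proteases of C1. C1R was called lower 4 times and C1S 3 times, and in no knockdown comparison was either called higher. In SUM159PT C1R was at 255, 461 and 167 TPM in siNT, 146, 249 and 169 TPM in siNRP1#3 and 49.9 and 33.2 TPM in siNRP1#5. The siNRP1#5 samples lay under every siNT sample, while siNRP1#3 overlapped siNT. C1R fell with siNRP1#5 (-2.58 ± 0.57, adjusted p = 0.00697), a call lost without siNRP1#5 replicate 3 (adjusted p = 0.0633). C1S was at 69.2, 135 and 47.2 TPM in siNT, 38.8, 64.5 and 38.05 TPM in siNRP1#3 and 8.98 and 6.74 TPM in siNRP1#5, with siNRP1#5 again under every siNT sample. It fell with siNRP1#5 (-3.15 ± 0.54, adjusted p = 0.00159), and this call stayed in every fit without 1 library. siNRP1#3 left C1S at -0.97 ± 0.42 (adjusted p = 0.167), and with a replicate block, since these numbers pair the samples, at -0.89 (adjusted p = 0.0472).

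With shNRP1#5 in SUM159PT, C1R was at 54.6, 32.1 and 31.6 TPM against 91.6, 149 and 85.5 TPM in shNT. All 3 samples lay under shNT, and the difference missed the threshold (-1.58 ± 0.47, adjusted p = 0.0592). C1S, at 24.2, 18.1 and 11.8 against 27.7, 41.7 and 33.5 TPM, did not overlap shNT either (-1.09 ± 0.42, adjusted p = 0.163). shNRP1#3 overlapped shNT for both genes.

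In MDA-MB-231 both genes had low levels. C1R was at 28.1, 11.5 and 13.2 TPM in shNT and at 2.32, 1.75 and 1.89 TPM in shNRP1#5, without overlap, and fell by 3.06 on the log2 scale (SE 0.62, adjusted p = 0.00397). C1S was at 6.79, 1.28 and 2.34 TPM in shNT and at 0.54, 0.38 and 0.42 TPM in shNRP1#5, again without overlap (-3.10 ± 0.66, adjusted p = 0.00446). Without shNT replicate 1, the sample at 6.79 TPM, the fold change of C1S was -2.07, and the call stayed (adjusted p = 0.016). With the siRNA of this sequence C1R was at 1.84, 1.24 and 5.56 TPM against 3.73, 4.76 and 14.6 TPM in siNT, with overlap (-1.24 ± 0.60, adjusted p = 0.138). C1S was at 0.26, 0.48 and 0.53 against 0.78, 1.1 and 1.85 TPM, without overlap. That difference missed the threshold (-1.81 ± 0.68, adjusted p = 0.0582) and passed with a replicate block, where the numbers pair the samples (-1.88, adjusted p = 0.0457).

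In HS578T C1R was at 109.7, 84.2 and 99.9 TPM in siNT, 53.6, 41.7 and 53.1 TPM in siNRP1#3 and 46.4, 33.6 and 32.4 TPM in siNRP1#5. Every sample of both knockdowns lay under every siNT sample. C1R fell with siNRP1#5 (-1.37 ± 0.32, adjusted p = 0.00746) and with siNRP1#3 (-1.15 ± 0.32, adjusted p = 0.0461). The siNRP1#3 call was lost in 10 of 17 fits without 1 library, each leaving out 1 of the 6 libraries compared, shNRP1#5 replicate 2, shNT replicate 2 or 3, or siNRP1#5 replicate 3 (adjusted p between 0.0555 and 0.13). It was also lost with RNA of other lines taken off, at -1.10 (adjusted p = 0.157) or -1.11 (0.0856), and with the siNRP1#5 libraries left out of the fit (0.0546). The siNRP1#5 call of C1R became -1.21 (adjusted p = 0.0556) at the NT level of the other lines and -1.03 (0.057) at the level of the same treatment. C1S was at 15.1, 7.68 and 10.1 TPM in siNT and 4.2, 3.16 and 3.29 TPM in siNRP1#5, without overlap (-1.65 ± 0.33, adjusted p = 0.00298). With RNA of other lines taken off, C1S was at -1.77 (adjusted p = 0.19) at the NT level and at -1.34 (0.0211) at the level of the same treatment. At the NT level no C1S counts were left in siNRP1#5 replicate 2.

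With shRNA in HS578T, C1R was at 50.99, 35.1 and 38.2 TPM in shNT, 27.4 and 14.1 TPM in shNRP1#3 and 23.1, 24.1 and 22.02 TPM in shNRP1#5. Both knockdowns lay under shNT without overlap, in libraries where the 5 MDA-MB-231 markers were near 0, and neither was called (-1.04 ± 0.36 and -1.03 ± 0.32, adjusted p = 0.473 and 0.122). The numbers of shNRP1#5 and shNT pair the samples, and with a replicate block C1R was called with shNRP1#5 (-0.996, adjusted p = 0.0404). RSEM gave C1R a fractional count in 27 samples. C1S had whole counts in all.

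SERPING1 (ENSG00000149131.17, plus strand, chr11:57597387-57619171), codes for the inhibitor of both proteases. It had between 5 and 422 expected counts per sample, so that its values rest on few reads. In SUM159PT shNT samples had 1.79, 3.23 and 3.08 TPM, shNRP1#3 had 0.13, 0.62 and 0.54 TPM and shNRP1#5 had 9.52, 6.49 and 5.15 TPM. The groups did not overlap, with shNRP1#3 below and shNRP1#5 above shNT. SERPING1 fell with shNRP1#3 (-3.29 ± 0.51, adjusted p = 0.00296) in this and in every fit without 1 library, and shNRP1#5 did not pass (1.24 ± 0.45, adjusted p = 0.126). SUM159PT shNRP1#5 had the highest mean of SERPING1 among the 18 groups, 7.05 TPM, and MDA-MB-231 shNRP1#5 the lowest, 0.327 TPM.

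In MDA-MB-231 SERPING1 was at 2.4, 2.21 and 1.62 TPM in shNT, 0.86, 0.39 and 0.6 TPM in shNRP1#3 and 0.58, 0.28 and 0.12 TPM in shNRP1#5. Both knockdowns lay under shNT, and SERPING1 fell with shNRP1#5 (-2.88 ± 0.58, adjusted p = 0.00247) in every fit without 1 library. The siRNA of the same sequence gave 1.89, 1.81 and 4.98 TPM against 0.93, 0.59 and 1.96 TPM in siNT, an overlap that comes from siNT replicate 3. The test called it higher (1.46 ± 0.51, adjusted p = 0.0402), with the call lost in 5 fits without 1 library. These are the fits without siNRP1#5 replicate 3 (0.64, adjusted p = 0.327), siNT replicate 1 (1.26, 0.14) or siNT replicate 2 (1.17, 0.149), and those without shNRP1#5 replicate 2 or shNT replicate 2, of which the lowest adjusted p was 0.0517. With the 2 groups alone the adjusted p was 0.109. The effects of shNRP1#5 on SERPING1 differed between the 3 lines (adjusted p = 0.0115), and in HS578T no comparison was called. HS578T siNRP1#3 had 1.15, 1.61 and 2.36 TPM and siNRP1#5 had 2.66, 2.81 and 1.95 TPM, against 2.97, 4.75 and 5.13 TPM in siNT. All 6 knockdown samples lay under siNT, and neither test passed (-1.58 ± 0.66, adjusted p = 0.185, and -0.79 ± 0.64, adjusted p = 0.419).

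CD46 (ENSG00000117335.21, plus strand, chr1:207752037-207795513) was called 4 times, 3 times lower and once higher. With siNRP1#3 in SUM159PT it was at 11.3, 13.4 and 15.4 TPM against 44.4, 34.7 and 43.1 TPM in siNT, and in MDA-MB-231 at 17.9, 18.5 and 26.99 against 52.6, 50.02 and 45.2 TPM. In both lines every siNRP1#3 sample lay under every siNT sample. CD46 fell in SUM159PT (-1.69 ± 0.20, adjusted p = 0.000178) and in MDA-MB-231 (-1.56 ± 0.15, adjusted p = 5.43e-07), and both calls stayed in every fit without 1 library. In HS578T siNRP1#3 was at 12.6, 14.1 and 11.4 TPM and siNT at 22.2, 13.5 and 13.3 TPM, with overlap (-0.64 ± 0.23, adjusted p = 0.125). The effects of siNRP1#3 on CD46 differed between the 3 lines (adjusted p = 0.027). shNRP1#3, with another sequence, gave 65.98, 52.1 and 48.5 TPM in SUM159PT, all above the 27.6, 27.8 and 25.9 TPM of shNT, and did not pass (0.76 ± 0.20, adjusted p = 0.0691).

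With siNRP1#5 CD46 was at 49.1, 24.8 and 27.01 TPM in MDA-MB-231, of which replicate 1 lay within the siNT range. It was called lower (-0.39 ± 0.14, adjusted p = 0.0424), and 13 of 18 fits without 1 library lost the call (adjusted p between 0.0504 and 0.199). These left out siNRP1#5 replicate 2 or 3, any of the siNT, shNRP1#3 or shNRP1#5 replicates, or shNT replicate 2 or 3. Without siNRP1#5 replicate 1 the fold change was -0.64 (adjusted p = 0.000136), and with the 2 groups alone the adjusted p was 0.241. In HS578T siNRP1#5 had 19.9, 26.8 and 27.1 TPM, which overlapped siNT through siNT replicate 1, and CD46 was called higher (0.70 ± 0.23, adjusted p = 0.0429). That call was lost without siNRP1#5 replicate 2 (0.0594) or 3 (0.186), siNT replicate 2 (0.133) or 3 (0.156), shNRP1#5 replicate 2 or shNT replicate 3 (from 0.0512), and with the 2 groups alone (0.0566). With RNA of other lines taken off, CD46 was at 0.67 (adjusted p = 0.0851) or 0.78 (0.0432). In SUM159PT siNRP1#5 had 28.6 and 31.9 TPM, under every siNT sample, and was not called. With shNRP1#5 CD46 lay above shNT in SUM159PT (36.2 to 50.45 against 25.9 to 27.8 TPM) and HS578T (17.9 to 27.1 against 11.97 to 16.7 TPM). In MDA-MB-231 it lay under shNT (36.96 to 44.7 against 50.4 to 58.3 TPM), and no shNRP1#5 comparison was called. The effects of siNRP1#5 and of shNRP1#5 on CD46 differed between the lines (adjusted p = 0.00608 and 0.0455).

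CD55 (ENSG00000196352.18, plus strand, chr1:207321519-207386804) lies on the same chromosome, as do many complement regulators. In MDA-MB-231 it was at 48.4, 40.3 and 48.4 TPM in siNT, 17.3, 24.2 and 19.1 TPM in siNRP1#3 and 78.1, 45.2 and 60.3 TPM in siNRP1#5. siNRP1#3 lay under siNT without overlap, and siNRP1#5 overlapped it from above. CD55 fell with siNRP1#3 (-1.28 ± 0.14, adjusted p = 2.83e-06) and rose with siNRP1#5 (0.59 ± 0.14, adjusted p = 0.00287), and both calls stayed in every fit without 1 library. With the 2 groups alone the rise had an adjusted p of 0.0672. No other knockdown comparison of CD55 was called. In SUM159PT siNRP1#5 its 2 samples, at 22.9 and 10.2 TPM, lay on either side of the lowest siNT sample.

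CD59 (ENSG00000085063.18, minus strand, chr11:33703010-33736479) had the smallest ratio between group means, from a lowest group mean of 218 TPM in MDA-MB-231 siNRP1#3 to a highest of 560.2 TPM in HS578T shNRP1#3. In MDA-MB-231 it was at 263, 244 and 286 TPM in siNT and 415, 312 and 324 TPM in siNRP1#5, all above siNT, and rose by 0.71 ± 0.10 on the log2 scale (adjusted p = 4.14e-05). The shRNA of the same sequence went the other way, at 356, 380.1 and 376 TPM against 502, 483 and 522 TPM in shNT, without overlap (-0.36 ± 0.10, adjusted p = 0.0182). The rise stayed in every fit without 1 library. The fall was lost without shNRP1#5 replicate 1 (adjusted p = 0.0598), 2 (0.054) or 3 (0.0605) or shNT replicate 3 (0.0745). In HS578T siNRP1#5 CD59 was at 490.0, 470.4 and 532 TPM against 321, 328 and 330.2 TPM in siNT, all above it (0.64 ± 0.20, adjusted p = 0.0389). Leaving out siNRP1#5 replicate 1 or 3, any of the siNT replicates, or shNT replicate 3 lost this call (adjusted p between 0.0506 and 0.158). MDA-MB-231 and SUM159PT RNA at their NT level would account for 67.3, 66.8 and 35.9 of the 725, 697 and 961 CPM of CD59 in these 3 libraries, and with it taken off the log2 fold change was 0.90 (adjusted p = 0.00936). Counts of CD59 were fractional in all 52 samples.

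**Figure D3:**
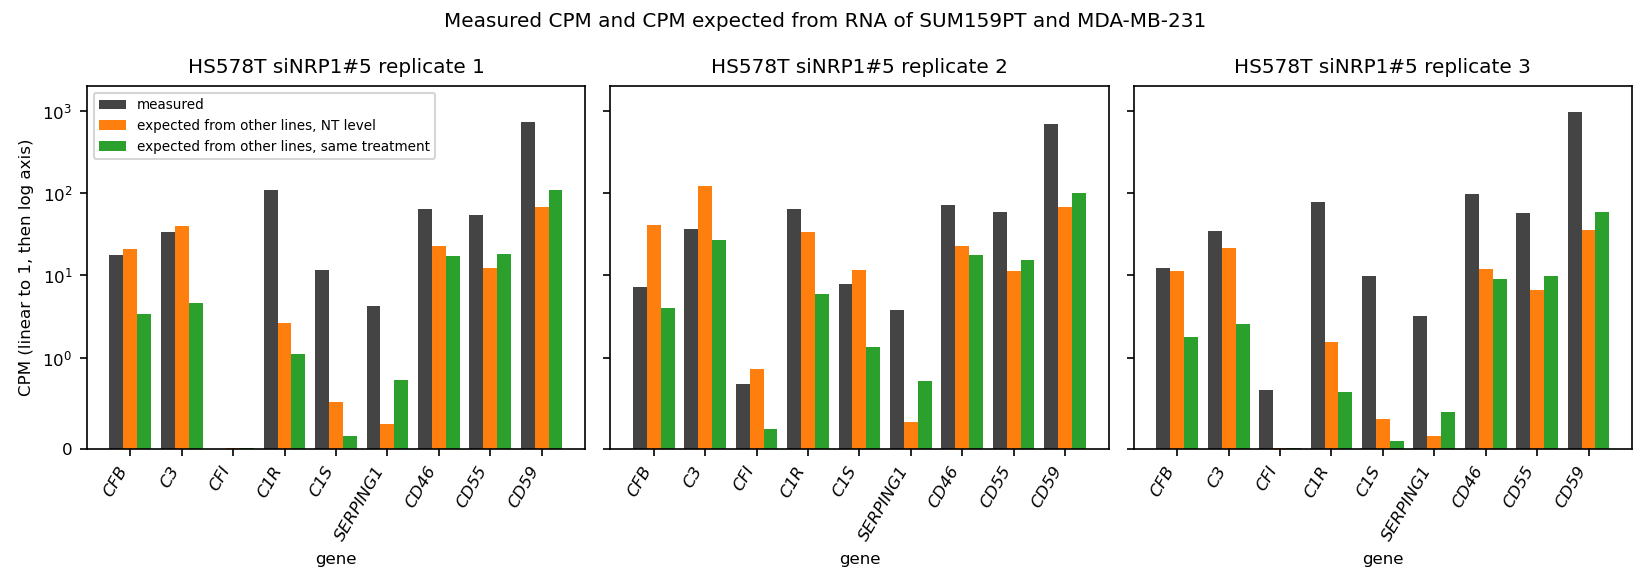
CPM of the 9 genes in the 3 HS578T siNRP1#5 libraries as measured (dark), and the CPM that RNA of MDA-MB-231 and SUM159PT would give at the share of their marker genes, at the NT level of those lines (orange) or at their level with siNRP1#5 (green). The vertical axis is linear up to 1 CPM and logarithmic above. The expected CPM at the NT level passed the measured CPM for CFB, C3 and CFI in replicates 1 and 2 and for C1S in replicate 2, where 11.5 CPM stood against 7.84 CPM, and CFI was under 1 CPM in all 3 libraries.

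Sequence #5 was the same in siRNA and shRNA, and the difference between its effects was tested in the fit of each line. In SUM159PT 1 of 9 members differed, where 2.51% of all genes did. It was CFI, with a difference of -2.81 ± 0.66 (log2, siNRP1#5 effect less shNRP1#5 effect, SE, adjusted p = 0.0363), which was lost in 10 of 17 fits without 1 library (adjusted p between 0.0504 and 0.0908). These were the fits without siNRP1#5 replicate 3, siNRP1#3 replicate 1, shNRP1#5 replicate 1 or 2, or replicate 1 or 3 of siNT, shNT or shNRP1#3. In MDA-MB-231 3 of 8 differed, against 23.7% of all genes, namely SERPING1 (4.34 ± 0.78, adjusted p = 0.000649), CD55 (0.91 ± 0.19, adjusted p = 0.002) and CD59 (1.07 ± 0.15, adjusted p = 3.94e-05). All 3 stayed in every fit without 1 library. For CFB, the difference in MDA-MB-231 was 1.10 ± 0.94 (adjusted p = 0.445), and for C1R 1.82 ± 0.84 (adjusted p = 0.137). In HS578T 0 of 9 differed by edgeR or DESeq2, against 0.854% of all genes by edgeR. C1S and CD59 had an unadjusted edgeR p under 0.05, as had 2522 of all 19661 genes. NRP1 itself fell further with siNRP1#5 than with shNRP1#5 in SUM159PT and MDA-MB-231, with differences of -2.01 and -3.83 on the log2 scale (adjusted p = 0.0315 and 8.14e-09). Delivery, selection and time of harvest differ between the modalities too, and these cannot be told apart.

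**Figure D4:**
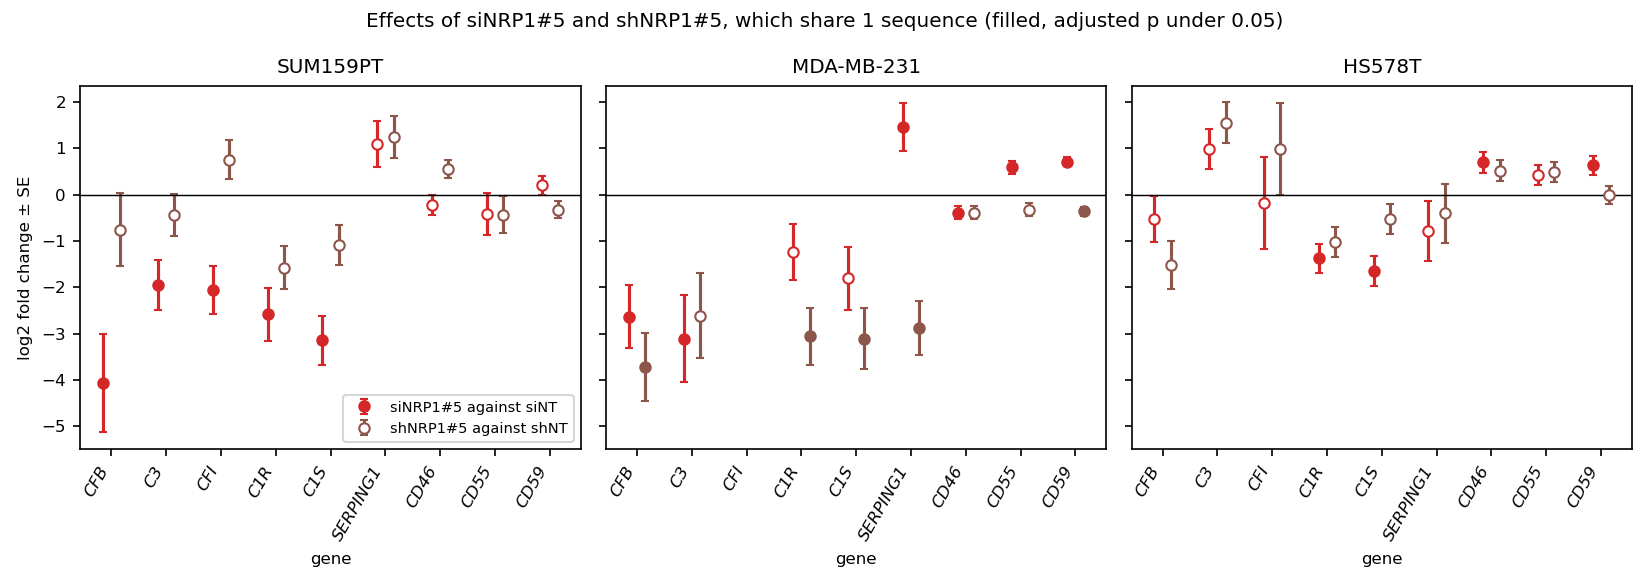
Log2 fold change ± SE of each gene with siNRP1#5 against siNT (red) and with shNRP1#5 against shNT (brown), which share 1 target sequence, in the 3 cell lines. Filled points have an edgeR adjusted p under 0.05. In MDA-MB-231 CFB was called lower in both modalities, and SERPING1 and CD59 were called in opposite directions.

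The test of equal effects over the 3 lines called CD46 alone for siNRP1#3 (1 of 9, where 3.42% of 23416 genes differed) and C3 and CD46 for siNRP1#5 (2 of 9, where 18.2% did). For shNRP1#3 edgeR and DESeq2 called 0 of 9, against 0.747% of all genes by edgeR. At an unadjusted edgeR p under 0.05 were 0 of 9 members and 1518 of 23416 genes. For shNRP1#5 the test called C3, SERPING1 and CD46 (3 of 9, against 3.81%). CFB with siNRP1#5, at -4.07, -2.63 and -0.52 in SUM159PT, MDA-MB-231 and HS578T, missed the threshold (adjusted p = 0.0534).

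The controls differed from each other as well. shNT against siNT gave 6 of 9 members called in SUM159PT, where 14.4% of all genes were. CFB (-3.35 ± 0.86), C3 (-2.50 ± 0.47), C1R (-1.69 ± 0.47), C1S (-1.55 ± 0.43) and CD46 (-0.81 ± 0.20) were lower in shNT, and CD59 (0.68 ± 0.18) was higher. C3 alone stayed in every fit without 1 library. Without siNT replicate 2, the fold change of CFB was -1.95 (adjusted p = 0.102), that of C1R -1.09 (0.126) and that of C1S -0.91 (0.135). All 5 other calls were also lost without shNT replicate 1 or 3, C1R, CD46 and CD59 without siNT replicate 1 too, and CD59 without siNT replicate 2 (adjusted p between 0.0519 and 0.139). In MDA-MB-231 1 of 8 was called, CD59 (0.74 ± 0.10), where 20.6% of all genes were. In HS578T 3 of 9 were called, against 17.9% of all genes, with C3 (-1.99 ± 0.45), C1R (-1.28 ± 0.32) and CD55 (-0.70 ± 0.21) lower in shNT. The call of C3 had an adjusted p of 0.32 with RNA of other lines taken off at the NT level and 0.0312 at the level of the same treatment. C1R was lost there without shNT replicate 2 (adjusted p = 0.0559) or 3 (0.0575), and CD55 without shNT replicate 2 (0.137) or 3 (0.122) or siNT replicate 1 (0.107) or 2 (0.0701). CD59 was thus higher in shNT by 0.68 and 0.74 in the lines where it was called, and by 0.43 in HS578T, where all shNT samples lay above all siNT samples and the test did not pass (adjusted p = 0.153).

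The share of each gene's leading transcript was not used in the choice of genes. It was tested for the 6 members with a mean of 200 or more expected counts in each line, as the difference in isoform percent averaged over the lines, by exact two-sided permutation of labels within lines, over 24 tests. Of these, 2 passed. C3-201, the coding transcript with the highest mean share of C3 (33.5%), was lower with shNRP1#3 by 12.1 percentage points (exact p = 0.00025, the smallest this test can give, adjusted p = 0.006). The differences were -8.02, -4.84 and -23.4 points in SUM159PT, MDA-MB-231 and HS578T, and the HS578T shNRP1#3 samples had as few as 19.95 expected counts for this transcript. Without HS578T the difference was -6.43 points (exact p = 0.005, adjusted p = 0.06). In SUM159PT and MDA-MB-231 every shNRP1#3 sample lay under every shNT sample, so that this p was the smallest the reduced test can give. The missed threshold therefore does not show that the difference rests on HS578T. C1R-214, with a mean share of 64.4%, was lower with siNRP1#5 by 13.3 points (exact p = 0.0015, adjusted p = 0.018). It differed by -2.67, -29.7 and -7.40 points in the 3 lines, with as few as 38.7 expected counts for it in MDA-MB-231 siNRP1#5, and without HS578T by -16.2 points (exact adjusted p = 0.14). Without replicate 1 of every group it was -7.93 points. CFB-271, the leading transcript of CFB at 59.3%, differed by 0.11 points with siNRP1#5 (exact adjusted p = 0.986).

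CD46 had its reads spread over 33 transcripts, and 4 coding ones that differ in a pair of cassette exons held between 27.3 and 78.3% of its TPM, with a median of 65.5%. Both exons are shown because their shares are given by line and group. The exon of 45 bases, chr1:207767779-207767823, codes for part of the serine, threonine and proline rich stalk outside the cell. The exon of 93 bases, chr1:207790253-207790345, holds the end of the reading frame for one of the alternative cytoplasmic tails, and its first 49 bases, chr1:207790253-207790301, are printed. Both are on the plus strand of GRCh38 and read 5′ to 3′, with no capitals.
45-base exon: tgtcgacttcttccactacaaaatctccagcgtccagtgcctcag
93-base exon, coding part: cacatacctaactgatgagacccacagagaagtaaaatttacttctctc
Of the 4 transcripts, 1 holds both exons, 1 the 45-base exon alone, 1 the 93-base exon alone and 1 neither. In the control samples (n = 6 per line), the share of these 4 transcripts with the 45-base exon had a median of 81.6% in SUM159PT (77.4 to 87.6), 73.4% in MDA-MB-231 (69.3 to 77.8) and 43.2% in HS578T (18.3 to 68.5).

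With siNRP1#5 the share of the 45-base exon was 46.4 and 44.6% in SUM159PT, against 87.6, 77.4 and 79.4% in siNT. It was 53.0, 62.1 and 57.7% in MDA-MB-231, against 77.8, 75.6 and 69.3%, and 28.5, 40.7 and 22.5% in HS578T, against 37.2, 18.3 and 45.3%. The groups did not overlap in SUM159PT and MDA-MB-231 and overlapped in HS578T. The mean difference over the lines was -18.5 points (exact permutation p = 0.006, adjusted p = 0.048 over 8 tests, which were added after these data had been seen). By marker genes, the HS578T siNRP1#5 libraries had shares of 24.3, 17.95 and 12.96% of MDA-MB-231 RNA. The MDA-MB-231 controls had the higher share of this exon, and exon shares were not recomputed with that RNA taken off. Over SUM159PT and MDA-MB-231 alone, the mean difference was -26.3 points (exact permutation p = 0.005, the smallest these 200 arrangements can give, adjusted p = 0.04 over 8 tests). With shNRP1#5, of the same sequence, it was -5.95 points (exact p = 0.024, adjusted p = 0.096), of which HS578T gave -15.3 and SUM159PT -1.63, and without HS578T it was -1.25 points (exact adjusted p = 0.493). siNRP1#3, which lowered the gene's level in SUM159PT and MDA-MB-231, left the share at 3.01 points above siNT (exact adjusted p = 0.478). The 93-base exon passed in none of its 4 tests (exact adjusted p between 0.189 and 0.478).

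**Figure D5:**
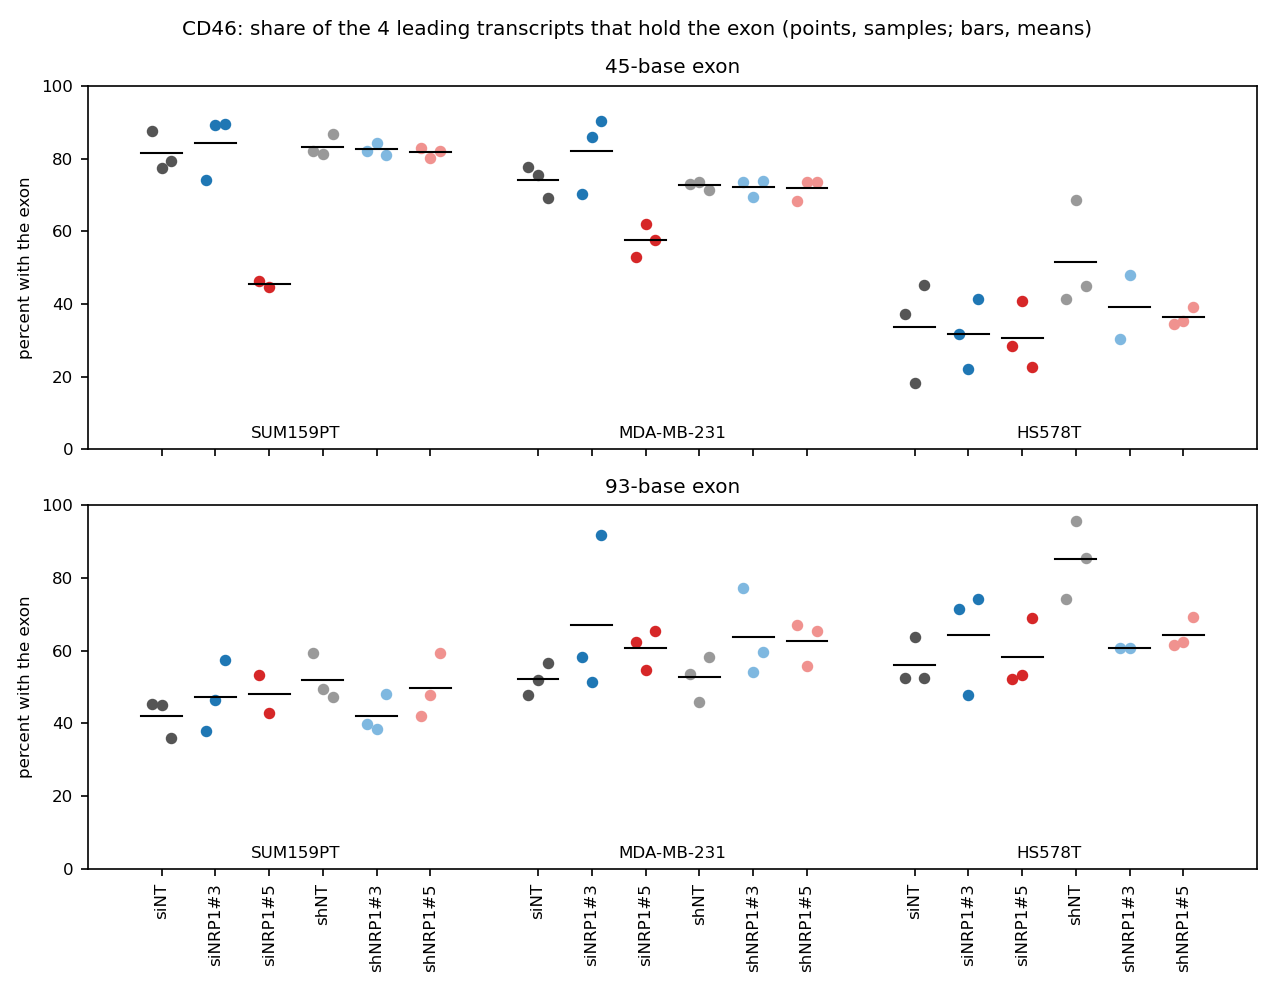
Share of the 4 leading coding CD46 transcripts, in percent of their summed TPM, that hold the 45-base exon (upper panel) or the 93-base exon (lower panel), by cell line and group. Points are samples and bars are group means, and the vertical axes run from 0 to 100%. In SUM159PT the siNRP1#5 samples, at 46.4 and 44.6%, lie under the other 15 samples of that line for the 45-base exon.

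Among the members, C1R and C1S were the closest to each other over the 52 samples. Pearson's r of TMM-normalised log2 CPM, with the mean of each line taken off, was 0.90, and within SUM159PT, MDA-MB-231 and HS578T it was 0.93, 0.88 and 0.86. CFB followed C1R at 0.83 (0.94, 0.75 and 0.77 within the lines) and C3 at 0.70 (0.88, 0.84 and 0.17). SERPING1 had 0.10 with C1R over all samples, and -0.49, 0.40 and 0.70 within the 3 lines. CD46 and CD55 had 0.62, and CD46 and CFB -0.02. These values describe samples that share lines, controls and libraries, and carry no test.

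Of 14626 genes with a mean of 1 CPM or more, the nearest to each member by this measure were as follows. CFB was nearest to TMEM132A (r = 0.84), H6PD and CIMAP1B, and C3 to TNFAIP2 (0.76), HLA-F and CREG1. C1R had C1S, UBA7 (0.88) and MRC2, and C1S had C1R, PLXNB1 (0.86) and C1RL (0.85), which codes for a C1r-like protease. CFI was nearest to CXXC4 (0.84), CAPS2 and TEX9, and SERPING1 to VWA1 (0.85), OBSL1 and ACVRL1. For CD46 they were MINPP1 (0.92), OSTM1 and HDGFL3, for CD55 GID4 (0.75), WWP1 and USP25, and for CD59 STS (0.76) and CTDSPL. No member of the soluble group was among the 3 nearest genes of a membrane regulator.

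A list of 50 other complement genes was tested in the same fits, and 33 of them passed the filter in at least 1 line. They were called 66 times in the 12 comparisons, and 24 genes at least once. By line, SUM159PT had 2, 12, 1 and 2 of 28 called with siNRP1#3, siNRP1#5, shNRP1#3 and shNRP1#5, MDA-MB-231 had 9, 11, 5 and 15 of 25, and HS578T had 3, 6, 0 and 0 of 26. The list is read against the shares of all genes given above. CLU, which codes for clusterin, an inhibitor of the membrane attack complex, had 5 calls, all lower, with log2 fold changes between -1.07 in SUM159PT siNRP1#3 and -0.40 in MDA-MB-231 siNRP1#5. C5, the substrate of the late convertases, had 4 calls, all lower, between -1.55 in SUM159PT siNRP1#5 and -0.66 in MDA-MB-231 shNRP1#5. C1RL fell in 4 comparisons, with log2 fold changes of -3.30 in SUM159PT siNRP1#5, -2.63 in HS578T siNRP1#5, -1.82 in HS578T siNRP1#3 and -1.26 in MDA-MB-231 shNRP1#5.

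C2, the classical pathway counterpart of CFB and its neighbour on chromosome 6, went down with shNRP1#5 in MDA-MB-231 (-3.07, adjusted p = 8.09e-06) and up in SUM159PT (2.27, adjusted p = 0.0418). It was also lower in MDA-MB-231 with shNRP1#3 (-1.501) and siNRP1#3 (-0.84). C4B was lower in 4 comparisons, between -3.40 in MDA-MB-231 shNRP1#5 and -2.08 in MDA-MB-231 siNRP1#3. It is nearly identical to C4A, so that the split of reads between them is uncertain. CFP, which codes for properdin, the stabiliser of the alternative convertase, was higher with siNRP1#5 in SUM159PT (1.69, adjusted p = 0.0453) and lower in MDA-MB-231 with both shRNAs (-1.18 and -1.48). In HS578T siNRP1#5, whose libraries had shares of other lines by marker genes, it was called higher as deposited (3.9998, adjusted p = 0.00342). The call was lost with RNA of other lines taken off at the NT level (7.07, SE 2.705, adjusted p = 0.11). At the level of the same treatment it was lost too, and the fit gave a log2 fold change of 0 with an SE of 0, so that no difference was estimated. ITGAX, a chain of a receptor for inactivated C3b, and COLEC12, a scavenger receptor collectin, each had 4 calls, 1 higher and 3 lower, and both were higher in MDA-MB-231 siNRP1#5 (1.37 and 1.90).

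A list of 21 transcription factors and cytokines known to act on complement genes had 18 genes tested, 17 called at least once and 41 calls. SUM159PT had 1, 7, 0 and 3 of 17 called with siNRP1#3, siNRP1#5, shNRP1#3 and shNRP1#5, MDA-MB-231 had 3, 8, 0 and 7 of 17, and HS578T had 5, 6, 0 and 1 of 18. Of all genes, 8.66%, 17.9%, 1.4% and 5.94% were called in SUM159PT, 25.7%, 29.4%, 3.65% and 20.7% in MDA-MB-231 and 4.65%, 18.7%, 0.0356% and 0.946% in HS578T. In SUM159PT and MDA-MB-231 every call with a #5 sequence was lower (25 of 25). In HS578T, 3 were higher and 3 lower with siNRP1#5 as deposited, and 1 was lower with shNRP1#5. The list was chosen with earlier results known and calls of a line share controls, so these counts are a description. Among all genes called, 1784 of 3590 were lower with siNRP1#5 and 541 of 1192 with shNRP1#5 in SUM159PT, and 2805 of 5518 and 2246 of 3899 in MDA-MB-231. RELA, the transactivating subunit of NF-kappaB, had 5 calls, all lower and all with sequence #5, between -1.38 in SUM159PT shNRP1#5 and -0.39 in MDA-MB-231 shNRP1#5. NFKB1, its partner, fell with siNRP1#5 in SUM159PT (-1.02) and MDA-MB-231 (-0.90). IRF2 fell with both modalities of sequence #5 in SUM159PT (-1.58 and -0.94) and in MDA-MB-231 (-1.16 and -0.63). IRF9 and STAT2, transcription factors of the interferon response, fell with siNRP1#5 in SUM159PT (-1.56 and -2.65) and HS578T (-0.95 and -1.58) and with shNRP1#5 in MDA-MB-231 (-1.05 and -0.90), and IRF9 also with siNRP1#5 in MDA-MB-231 (-0.58). With siNRP1#3 in MDA-MB-231 both rose (0.86 and 0.75).

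Of the cytokines, IL6, an inducer of acute phase proteins, fell with siNRP1#5 in SUM159PT (-2.69, adjusted p = 0.0457) and MDA-MB-231 (-1.95, adjusted p = 0.00302). In HS578T it was called higher with siNRP1#5 as deposited (2.56, adjusted p = 0.00136) and with siNRP1#3 (3.55, adjusted p = 0.000464). IL1B had the same directions where it was called, at -2.81 in SUM159PT siNRP1#5, 2.55 in HS578T siNRP1#5 and 5.25 in HS578T siNRP1#3. LIF fell with siNRP1#5 in SUM159PT (-3.42) and MDA-MB-231 (-0.76) and rose with siNRP1#3 in HS578T (1.38). The HS578T siNRP1#3 values of these cytokines are as deposited, in libraries that also had shares of MDA-MB-231 RNA by marker genes. With RNA of other lines taken off at the NT level, the list had 5 of 18 genes called in HS578T siNRP1#5, all lower, and IL6 (0.16, adjusted p = 0.943) and IL1B (1.18, adjusted p = 0.525) were not called. At the level of the same treatment in those lines, IL6 was higher (3.18, adjusted p = 0.00163) and IL1B lower (-7.32, adjusted p = 0.00486), so that the direction of IL1B there is unresolved. RELA and IRF9 kept their calls in that group at the NT level and lost them at the level of the same treatment (adjusted p = 0.0835 and 0.0769). In the same HS578T comparisons C1R and C1S were not called higher, and C3 was at -0.37 with siNRP1#3 and at 0.98 with siNRP1#5, neither called.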

How the data were processed

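RNA-seq was performed on 52 samples of 3 cell lines. Per the labels and the study's methods, the authors trimmed reads with Trim Galore 0.6.5, aligned them to GRCh38 with STAR 2.7.2b and quantified genes and transcripts with RSEM 1.3.3 in stranded paired-end mode, after FastQC 0.11.9. The authors deposited RSEM expected counts per gene and per transcript, which are not scaled for library size. The deposited TPM values are scaled by length and by sample. The deposited isoform percent is the share of a transcript in the TPM of its gene.

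Expected counts were rounded to whole numbers and fitted with edgeR 4.0.16 (limma 3.58.1, R 4.3.3) after filterByExpr and TMM normalisation, with robust quasi-likelihood tests and Benjamini-Hochberg adjustment over all genes tested, in 1 fit per cell line over its 6 groups and in 1 fit over all 52 samples for tests between lines. Calls have an adjusted p under 0.05. DESeq2 1.42.0, no filter, a replicate block, the 2 groups alone, and fits without each library were the alternatives, and log2 ratios of mean TPM used a pseudocount of 0.1. Added after the data had been seen were subtraction of other lines' RNA at the level of the same treatment, fits without HS578T siNRP1#5 or without SUM159PT siNT 2 and siNRP1#3 2, the CD46 exon tests with and without HS578T, and the subtraction for the lists in HS578T siNRP1#5. The subtraction takes from each gene's count the count expected at the share of the other line's marker genes. Where more was expected than counted, no counts were left. Replicate numbers were taken to pair samples where the deviations of every same-numbered pair from their group means correlated above 0.1. This was so in 4 of 10 knockdown comparisons with 3 pairs, SUM159PT siNRP1#3 and shNRP1#3, MDA-MB-231 siNRP1#5 and HS578T shNRP1#5. The replicate block was fitted over all 6 groups of a line, not over the paired groups alone. The numbers of shNT and siNT did not pair the samples in any line. Shares of transcripts were compared by exact permutation, and scripts were tested on simulated data. Depth was known only as the sum of expected counts, and small counts limit SERPING1, CFI and C1S.

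The members and lists were chosen with earlier results of these data known. Named were all 9 members, NRP1, up to 8 genes of each list with the most calls in the 12 knockdown comparisons (ties by the largest fold change), and the 3 genes nearest to each member, of which 1 is not reported here. Promoter letters came from RefSeq (GRCh38.p14) and exon letters from GRCh38 with its GENCODE annotation. Python 3.11.15 with numpy 2.4.6, pandas 2.3.3 and matplotlib 3.10.9 did the rest.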

Additional observations from a re-analysis of the deposited data

Results flagged for a closer look

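The following genes differed between groups by a test of the difference itself, with edgeR's adjusted p over all genes tested. The effect of siNRP1#5 less that of shNRP1#5 was -2.81 (log2) for CFI in SUM159PT, and in MDA-MB-231 it was 4.34 for SERPING1, 0.91 for CD55 and 1.07 for CD59. The effects of siNRP1#3 were unequal over the 3 cell lines for CD46 (edgeR adjusted p = 0.027), and those of siNRP1#5 for C3 (0.00561) and CD46 (0.00608). The effects of shNRP1#5 were unequal for C3 (edgeR adjusted p = 0.0227), SERPING1 (0.0115) and CD46 (0.0455). The tests of siNRP1#5 include the HS578T libraries that had a share of MDA-MB-231 RNA by marker genes, and its part in them was not tested.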

How the results depend on the processing

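The 26 member calls in the knockdown comparisons became 52 with no filter on low counts, 38 with DESeq2, 34 with a replicate block, 25 with the 2 groups compared alone, and 23 or 24 with RNA of other lines taken off at the NT level or at the level of the same treatment. Without 1 library they numbered 23 to 27, and the 10 calls between shNT and siNT 5 to 12. With no filter the calls between siNRP1#5 and shNRP1#5 effects went from 4 to 11, those of unequal effects over the lines from 6 to 19, and those of transcription factors and cytokines from 41 to 77. The cause was not tested. The share of all genes called under these settings is not given, except for the replicate block below. The counts are therefore no result about the members or the lists. Without HS578T, the isoform tests that passed went from 2 to 0, where fewer samples entered. No called value of a member changed sign in any of these fits. Where the replicate numbers do not pair the samples, the replicate block added C1R (-1.45) and C1S (-1.07) in SUM159PT shNRP1#5 and C1S (-1.04) in HS578T siNRP1#3, and in the comparisons named as paired it took genes called from 281 to 452 in SUM159PT shNRP1#3 and from 186 to 331 in HS578T shNRP1#5. In SUM159PT siNRP1#3 it took them from 1737 to 2472. All genes called rose with the block in every knockdown comparison, for example from 5518 to 5716 in MDA-MB-231 siNRP1#5 and from 914 to 1274 in HS578T siNRP1#3. The block lost no member call in the knockdown comparisons. Depth limits SERPING1, with as few as 5 counts, C1S, with as few as 10.0, and CFI, with 0.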
